A study of Mus musculus with 11 samples.

Results

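Igf2 and H19 are 2 neighbouring imprinted genes at the distal end of mouse chromosome 7, taken here as the rows of the total and allelic count tables that carry those symbols, 2 of 55401 genes. They were followed in polyadenylated RNA of the hippocampus, the forebrain region of memory formation, from 11 female F1 hybrid mice with 1 library per mouse. The parents were BL6, a classical laboratory mouse strain, and CAST, a wild-derived inbred strain, so that sequence differences between them assign a read to the maternal or the paternal chromosome. The study asked whether imprinted expression in brain is stable with age. The old group held 3 mice of a BL6 mother and CAST father, aged 101 to 104 weeks, and 2 mice of a CAST mother and BL6 father, aged 103 weeks. The young group held 3 mice of a BL6 mother, aged 9 weeks, and 3 of a CAST mother, aged 8 to 9 weeks. No transgene or treatment was named for any group. Replicate numbers only name a mouse and carry no order.

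Imprinted genes are read mainly from the copy of 1 parent. Igf2 encodes insulin-like growth factor 2, a fetal growth factor that signals through the type 1 receptor and the insulin receptor and is cleared by the Igf2r receptor. It is read from the paternal copy in most fetal tissues, while H19, a long noncoding RNA, is read from the maternal copy. A control region between them binds the insulator protein CTCF on the unmethylated maternal copy and keeps Igf2 there away from shared enhancers. The choroid plexus, which secretes the cerebrospinal fluid, and the leptomeninges, the inner membranes of the brain, are known as the main sources of Igf2 in adult rodent brain, and both parental copies are known to be active there.

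In the GENCODE annotation of GRCm38, H19 is a noncoding gene on the minus strand at chr7:142575529-142578143 with 2460 exonic bases. Igf2 is a protein-coding gene on the same strand at chr7:142650766-142666816 with 5723 exonic bases in 9 transcripts, and 72622 bases separate the genes. Each hosts a microRNA, and the mature forms are printed 5′ to 3′ from RefSeq (GRCm38.p6) with the seed, bases 2 to 8, in capitals, because they are the short products encoded within the 2 genes. Mir675 lies inside an H19 exon, and Mir483 lies in an Igf2 intron.
mmu-miR-675-5p, chr7:142577112-142577133, minus strand: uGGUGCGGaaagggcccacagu
mmu-miR-675-3p, chr7:142577078-142577099, minus strand: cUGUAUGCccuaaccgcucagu
mmu-miR-483-5p, chr7:142654968-142654989, minus strand: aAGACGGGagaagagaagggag
mmu-miR-483-3p, chr7:142654932-142654952, minus strand: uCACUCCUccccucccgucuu
Each of the 4 seeds occurs in 1 of 1738 mature mouse microRNAs of the table. The libraries came from long polyadenylated RNA and do not measure mature microRNAs. Reads over Mir675 numbered 101 in all mice, between 10.3% and 25.4% of the H19 reads of a mouse, while Mir483 had 5 reads.

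RefSeq lists 4 promoter windows of 300 bases for Igf2 and none was matched for H19. The windows with the fewest and the most CpG dinucleotides, the sites of DNA methylation, are shown because the deposited gene counts add the reads of all starts, so that allelic shares cannot be separated by promoter. CpG is in capitals and reads the same on both strands.
Igf2 window of fewest CpG, chr7:142666767-142667066, minus strand: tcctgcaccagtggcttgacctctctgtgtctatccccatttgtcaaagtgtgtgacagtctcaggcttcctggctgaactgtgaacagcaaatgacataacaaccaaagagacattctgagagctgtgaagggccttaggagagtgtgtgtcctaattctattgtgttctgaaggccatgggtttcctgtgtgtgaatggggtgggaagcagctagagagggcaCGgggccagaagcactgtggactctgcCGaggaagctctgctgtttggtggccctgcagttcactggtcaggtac
Igf2 window of most CpG, chr7:142658755-142659054, minus strand: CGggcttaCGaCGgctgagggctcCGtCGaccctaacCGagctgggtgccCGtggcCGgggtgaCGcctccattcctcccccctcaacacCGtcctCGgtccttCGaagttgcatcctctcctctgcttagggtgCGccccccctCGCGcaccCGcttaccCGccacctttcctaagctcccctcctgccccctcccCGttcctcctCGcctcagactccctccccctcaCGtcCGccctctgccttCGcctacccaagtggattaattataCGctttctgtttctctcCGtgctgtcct
The first window holds 2 CpG, a number reached by 85.9% of 32851 promoter windows of that length. The second holds 24, reached by 19.98% of them, and the median window holds 7.

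The libraries held between 111.1 and 214.8 M counts each, of which between 39.7 and 76.9 M could be given to an allele. Peg3 and Snrpn, read from the paternal copy, and Kcnq1ot1, read from the paternal copy on distal chromosome 7, had maternal shares between 0.0220% and 0.501% in all 11 mice, which checks the parental labels. Markers of neighbouring tissue varied widely between libraries. Summed over 18 choroid plexus genes they ran from 165 to 1597 CPM in old and from 149 to 2046 CPM in young mice. Summed over 20 leptomeningeal fibroblast genes they ran from 66.0 to 91.0 CPM in old and from 66.1 to 220 CPM in young mice, and 8 striatal neuron genes from 116 to 887 and from 105 to 2507 CPM. Hippocampal neuron genes, 10 in number, summed to 3385 CPM or more in every library. CPM are counts scaled to library size after TMM normalisation, and allelic CPM are reads of an allele scaled to the allelic total of the mouse. In such bulk RNA, fewer cells of a type and less RNA per cell cannot be told apart.

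Igf2 was an abundant transcript in every hippocampus and H19 a rare one. On the deposited TPM scale, which is per gene length, Igf2 stood at 21.7 ± 15.2 (SD, n = 11), from 8.57 to 58.8, and H19 at 0.273 ± 0.122, from 0.0871 to 0.434. The lowest Igf2 level was thus above the highest H19 level, over mice that differed several-fold among themselves. Igf2 had between 2856 and 22392 reads per mouse and H19 between 14 and 116. Nearly all Igf2 reads were also counted for Gm49394, a predicted gene at chr7:142650769-142669942 that shares exons with it, whose counts were 97.1% to 99.3% of those of Igf2. The 2 entries are 1 measurement.

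Total Igf2 in the old mice was 20.5, 98.7, 64.5, 20.8 and 33.9 CPM (replicates 1 to 5). In the young mice it ran from 28.4 over a median of 68.6 to 128 CPM. High and low mice occurred at both ages and the ranges overlapped. Old mice averaged 47.7 ± 33.7 CPM (SD, n = 5), against 70.0 ± 36.8 CPM (SD, n = 6) for young mice. The log2 difference of old against young was -0.52 with an SE of 0.48, which did not pass the edgeR test (adjusted p = 0.677). Across all genes, 104 of 30568 tested, or 0.34%, passed it at an adjusted p under 0.05, and neither Igf2 nor H19 was among them.

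Total H19 in the old mice was 0.0895, 0.220, 0.583, 0.291 and 0.139 CPM. In the young mice it ran from 0.239 over a median of 0.384 to 0.638 CPM, so that these ranges overlapped too. The means were 0.264 ± 0.194 CPM (SD, n = 5) in old and 0.395 ± 0.140 CPM (SD, n = 6) in young mice, a log2 difference of -0.68 (SE 0.42, edgeR adjusted p = 0.510). The meningeal collagen genes Col1a2 and Col3a1 were lower in old mice in the same fit, with log2 differences of -1.64 and -1.96 (edgeR adjusted p = 0.0485 and 0.0481). The choroid plexus list had 0 of 18 genes called for age and the leptomeningeal list 2 of 20, both lower. Microglial genes, 0 of 8 called, were all higher in old mice at an unadjusted p under 0.05. Over all genes 3811 of 30568 reached that p for age, in either direction. With log2 Ttr and log2 Col1a2 as covariates the differences between ages turned to 0.77 for Igf2 and 0.63 for H19, again short of the threshold (edgeR adjusted p = 0.522 and 0.640). Col1a2 reached at most 9.42 CPM in old libraries (replicate 3) and at least 12.4 CPM in young ones (replicate 1). Age and Col1a2 are thus hard to separate in that fit, and the turned values are no measure of age at equal content. The part of striatal and microglial content in the age comparison was not tested.

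**Figure D1:**
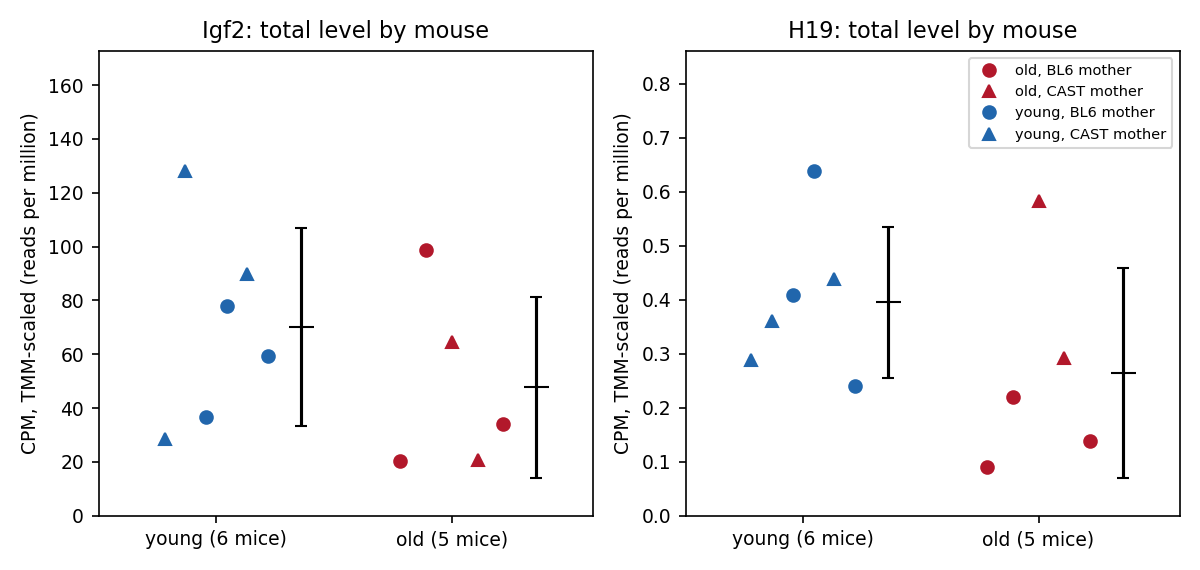
Total level of Igf2 (left) and H19 (right) in TMM-scaled CPM, both axes starting at 0. Each point is 1 mouse, colour gives the age and shape the mother's strain, and black bars give mean ± SD of 6 young and 5 old mice. Igf2 spans 20.5 to 128 CPM and H19 spans 0.0895 to 0.638 CPM, with overlapping age groups.

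The mother's strain was compared in the same fit. Igf2 averaged 66.3 ± 44.4 CPM (SD, n = 5) in mice of a CAST mother and 54.5 ± 29.7 CPM (SD, n = 6) in mice of a BL6 mother, a log2 difference of 0.17 with an SE of 0.48. H19 averaged 0.392 ± 0.123 and 0.289 ± 0.203 CPM, a log2 difference of 0.54 with an SE of 0.41. Neither passed (edgeR adjusted p = 1.00 for each), where 0.206% of genes did. In the fit of age by cross no gene of 31355 passed (0.0%), with 3711 at an unadjusted p under 0.05. The interaction was -0.76 for Igf2 (edgeR unadjusted p = 0.448) and 1.80 for H19 (unadjusted p = 0.0193, adjusted p = 0.418). Within the crosses, old against young H19 was -1.55 on the log2 scale in mice of a BL6 mother and 0.30 in mice of a CAST mother, and neither value passed.

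Igf2 was read from both parental copies with more reads from the maternal one in 11 of 11 mice. Reads that cover a strain difference numbered 407 to 2865 per mouse, and over all mice 9249 were maternal and 4643 paternal. The maternal share in old replicates 1 to 5 was 85.9%, 60.9%, 59.8%, 72.2% and 73.0%. In the young mice it ran from 58.8% over a median of 67.5% to 74.5%. Exact binomial 95% intervals, which cover counting error only, lay above 50% in every mouse, from 56.6% to 62.9% in old replicate 3, whose lower bound was the lowest, up to 82.6% to 88.7% in old replicate 1. Old replicate 1 was the highest of all, young replicate 2 the lowest, and the ranges of the age groups overlapped. In the allelic edgeR fit the maternal copy exceeded the paternal by 1.01 on the log2 scale in young mice, with an SE of 0.14 (adjusted p = 1.1e-04). In old mice it exceeded it by 1.07 with an SE of 0.18 (adjusted p = 0.00103).

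H19 was read almost wholly from the maternal copy. Over all mice 176 of 192 allelic reads were maternal, or 91.7% (exact 95% interval 86.8% to 95.2%). Every allelic read was maternal in 5 of 11 mice. Depth limited the single mice, with 4 to 43 allelic reads. Old replicate 3 had 24 of 27 reads from the maternal copy, young replicate 4 had 40 of 43, young replicate 5 had 33 of 33, and young replicate 3 had 14 of 21. The last is 66.7% (exact 95% interval 43.0% to 85.4%), the lowest share of H19 in any mouse. In young replicate 5 the count of 0 paternal reads allows a paternal share of up to 9.09%, taken as 3 of 33 reads. The exact 95% interval of its maternal share was 89.4% to 100%. The maternal excess in the allelic edgeR fit was 3.87 on the log2 scale in young mice (SE 0.53, adjusted p = 6.3e-05) and 3.69 in old mice (SE 0.68, adjusted p = 0.00330). Without old replicate 2 the value for old mice was 3.19 and its adjusted p was 0.0613.

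Both genes thus passed on the maternal side at both ages, where 0.449% of 24707 autosomal genes did in young and 0.445% in old mice. Among the 111 genes called maternal in young mice, 79 had an excess at least as large as H19 and 86 at least as large as Igf2. The BL6 copy differed from the CAST copy by -0.03 on the log2 scale for Igf2 (adjusted p = 0.892). For H19 the difference was -1.48 (SE 0.64, adjusted p = 0.0548), with the CAST copy higher, in a test that 57.4% of genes passed.

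**Figure D2:**
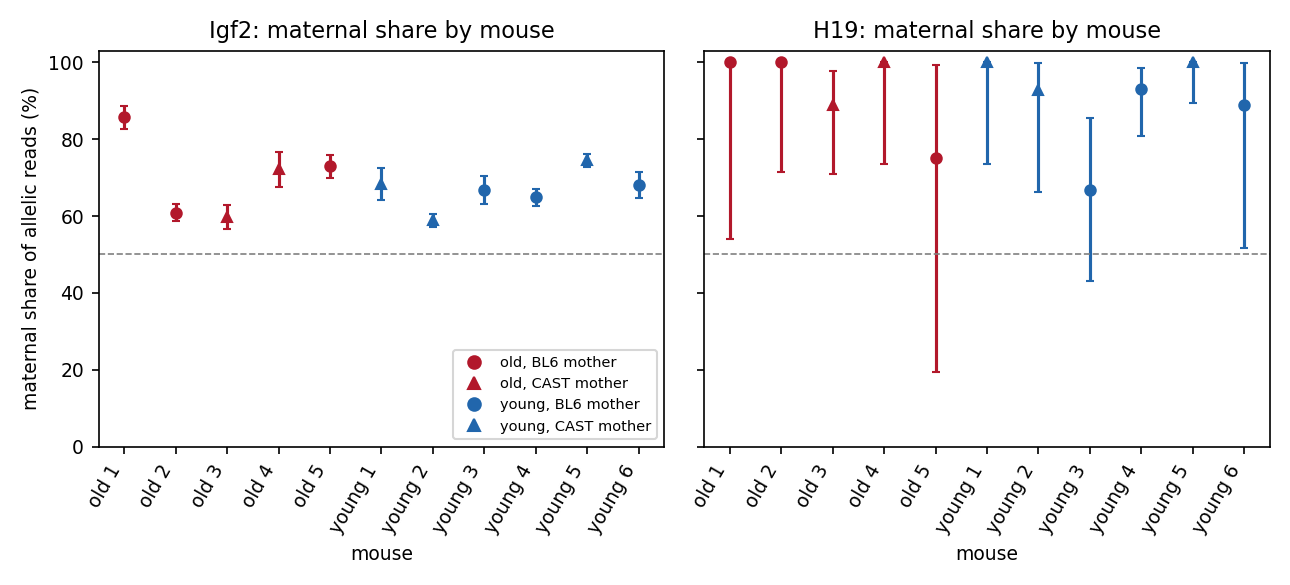
Maternal share of allelic reads in percent for Igf2 (left) and H19 (right), 1 point per mouse with its exact 95% binomial interval, colour for age, shape for the mother's strain, and a dashed line at 50%. All 11 Igf2 intervals and 9 of 11 H19 intervals lie above 50%, and the H19 intervals are wide because of few reads.

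The maternal share was then compared between ages and crosses. For Igf2 the mean was 70.4% ± 10.6 (SD, n = 5) in old and 66.9% ± 5.09 (SD, n = 6) in young mice, a difference of 3.45 percentage points (exact permutation test over 462 splits, two-sided, p = 0.524). Without old replicate 1 the difference was -0.429 points. Mice of a CAST mother averaged 66.7% ± 7.12 (n = 5) and mice of a BL6 mother 69.9% ± 8.77 (n = 6, exact permutation p = 0.563). For H19 only 4 mice, 1 old and 3 young, reached 20 allelic reads, and no p under 0.05 is possible there. With all 11 mice the means were 92.8% ± 11.0 in old and 90.2% ± 12.4 in young mice (exact permutation p = 0.751). In the allelic edgeR fit the maternal excess differed between ages by 0.07 for Igf2 (SE 0.23, adjusted p = 0.988) and by -0.18 for H19 (SE 1.47, adjusted p = 1.00), where 0.0769% of genes passed. Such an SE, taken back from the test statistic, is unstable for a difference near 0. Without each mouse in turn the H19 difference ran from -1.18 to 1.44, so sizable changes could stay undetected at this depth.

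Ttr, which encodes transthyretin, the main secreted protein of the choroid plexus, ran from 4.17 to 880 CPM between libraries. The widest gap lay between 4 mice at 13.5 CPM or less and 7 mice at 89.8 CPM or more. The maternal share of Igf2 was lower in libraries with more Ttr. The 3 mice of highest Ttr, old replicates 2 and 3 and young replicate 2 with 880, 771 and 761 CPM, had the 3 lowest shares, 60.9%, 59.8% and 58.8%. The 2 mice of lowest Ttr, young replicate 5 and old replicate 1 with 4.17 and 5.63 CPM, had the 2 highest, 74.5% and 85.9%. Over the 11 mice Pearson's r with log2 Ttr was -0.82 (permutation p = 8.5e-04, adjusted over 10 relations 0.00850) and Spearman's rho was -0.88 (permutation p = 6.3e-04, adjusted 0.00630). Without those 2 mice of lowest Ttr, r was -0.75. The call was lost without old replicate 1 (r = -0.82, permutation p adjusted 0.0544). It was also lost in the 6 young mice alone (r = -0.79, exact permutation p adjusted 0.431) and in the 6 mice of a BL6 mother alone (r = -0.78, adjusted 0.0833). Within the 7 mice above the gap r was -0.95 (exact permutation p adjusted over 10 relations 0.0198) and rho was -0.86, which did not pass (exact permutation p adjusted 0.160). This subset was picked from the Ttr values after they were seen. Neither p is adjusted for that choice, so they add no independent test. The 4 mice below it were too few for a value. With the mean of the choroid plexus list in place of Ttr, r was -0.82. The r of the share was -0.34 with Col1a2 (permutation p adjusted 0.342) and -0.05 with the mean of the leptomeningeal list.

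Across all genes the same relation was fitted in edgeR as the product of maternal allele and centred log2 Ttr, a fit added after the values were seen. The maternal excess of Igf2 fell by 0.14 on the log2 scale per doubling of Ttr (SE 0.02, adjusted p = 0.0207). In this fit 2 of 24706 genes passed, or 0.0081%, and they were Igf2 and the overlapping Gm49394. H19 did not pass, at 0.11 (adjusted p = 0.980). The Igf2 slope lay between -0.17 and -0.12 without each mouse in turn. Its call was lost without old replicate 2, 3 or 4 or young replicate 2 or 5, with adjusted p up to 0.218. Among imprinted genes, Mest, a paternally read gene, had a slope of -0.09 (adjusted p = 0.0584). With Col1a2 in place of Ttr the Igf2 slope was -0.05 (adjusted p = 1.00) and 1 gene passed, or 0.00405%, which was Peg10.

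**Figure D3:**
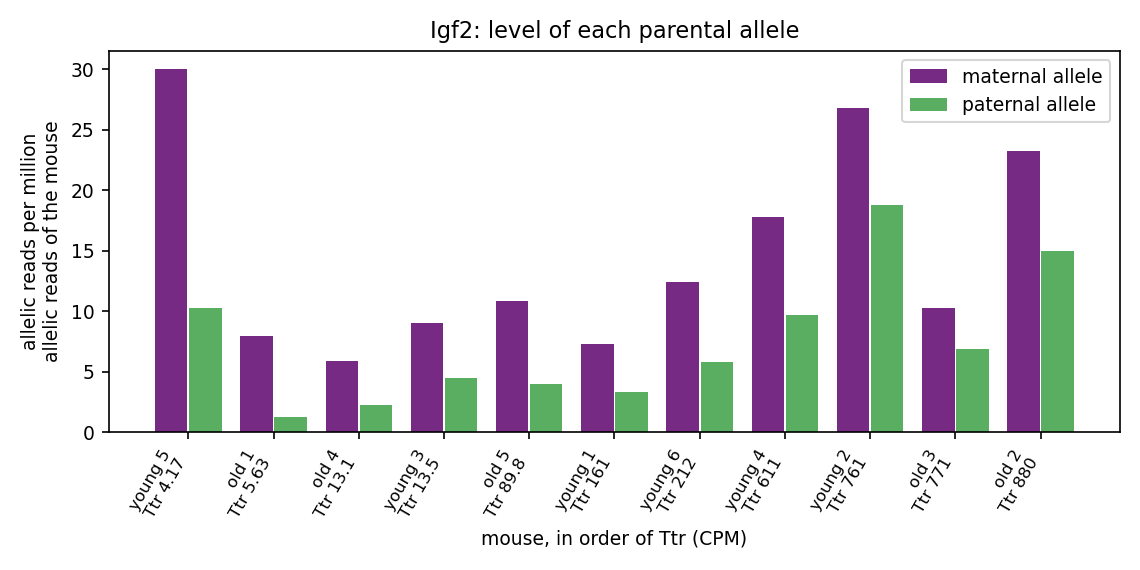
Igf2 in allelic CPM, scaled to the allelic total of that mouse, from the maternal (purple) and paternal (green) copy, as 1 pair of bars per mouse from 0, with mice in order of Ttr in CPM. The paternal level runs from 1.31 in old replicate 1 to 18.8 in young replicate 2, and the maternal level from 5.87 to 30.03 allelic CPM.

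Paternal Igf2 ran from 1.31 to 18.8 and maternal Igf2 from 5.87 to 30.03 allelic CPM. Old replicate 1, at 5.63 CPM of Ttr, had 7.94 maternal and 1.31 paternal allelic CPM. Old replicate 2, at 880 CPM, had 23.3 and 15.0. Young replicate 5 stood apart with 4.17 CPM of Ttr, the highest Col1a2 of all libraries at 34.6 CPM, and 30.03 maternal and 10.3 paternal allelic CPM. The correlation with log2 Ttr was 0.62 for paternal Igf2 (permutation p = 0.0461, adjusted 0.0940) and 0.31 for maternal Igf2 (p = 0.342, adjusted 0.342). Neither passed after adjustment, and the difference between them was not tested. Without young replicate 5 both passed, at 0.87 for paternal Igf2 (permutation p adjusted 0.00497) and 0.75 for maternal Igf2 (adjusted 0.0338). For each copy this was the only pass among 11 such removals. Without other single mice r was as low as 0.49 for paternal and 0.19 for maternal Igf2. In the 6 mice of a BL6 mother r was 0.91 for paternal and 0.94 for maternal Igf2 (exact permutation p adjusted 0.0208 for each). In the 6 young mice it was 0.27 and -0.03 (exact permutation p adjusted 0.804 and 0.946).

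Total Igf2 was higher in libraries with more Ttr and with more Col1a2, without passing the adjusted tests. Its r with log2 Ttr was 0.58 (permutation p = 0.0666, adjusted 0.0952), with a Spearman's rho of 0.58 (p = 0.0671). Without young replicate 5 it was 0.87 (permutation p adjusted 0.00497), the only pass among 11 such removals. Without the 2 mice farthest from the median of Ttr it was 0.84. In the 6 mice of a BL6 mother it was 0.94 (exact permutation p adjusted 0.0208), and in the 6 young mice 0.23 (exact permutation p adjusted 0.804). Col1a2, a fibrillar collagen gene of meningeal fibroblasts, ran from 4.00 to 34.6 CPM, and its r with Igf2 was 0.61 (permutation p = 0.0481, adjusted 0.0940). That value rested on the 2 libraries of lowest Col1a2, old replicates 1 and 4, since without them r was 0.25. Col1a2 was lower in every old than in every young library, so this r cannot be told apart from a difference between ages. With the means of the choroid plexus and leptomeningeal lists, r with total Igf2 was 0.65 and 0.48 (permutation p adjusted 0.113 and 0.225). The r between Ttr and Col1a2 was 0.09. Of 14301 genes whose mean reached 1 CPM, predicted genes left out, 547 had an r with Ttr and 243 an r with Col1a2 at least as high as Igf2.

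In an edgeR fit with cross and age, total Igf2 differed by 0.16 on the log2 scale per doubling of Ttr (SE 0.06, unadjusted p = 0.0262, adjusted p = 0.436) and H19 by 0.10 (adjusted p = 0.571). Neither passed, where 0.275% of genes did, all of them upward. Of the choroid plexus genes, 17 of 17 tested passed, among them the phosphodiesterase gene Enpp2 with 0.31 (adjusted p = 0.00494), the anti-ageing coreceptor gene Kl with 0.34 (adjusted p = 0.01001) and the membrane protein gene Tmem72 with 0.92 (adjusted p = 4.5e-07). The median of the choroid plexus list was 0.54 per doubling. Striatal neuron genes moved with Ttr as well, with a median of 0.45 and 8 of 8 higher at an unadjusted p under 0.05, as did 5 of 10 ependymal genes, though edgeR called 0 of either list. At that p 5 of 8 astrocyte, 3 of 10 hippocampal neuron and 2 of 20 leptomeningeal genes were lower. Over all genes 3362 of 30567 reached that p with Ttr, in either direction. The part of this other tissue content in the relations of Igf2 to Ttr was not tested. Without young replicate 5 Igf2 passed as well, at 0.30 (adjusted p = 0.0387). This was the only pass among 11 such removals, and the highest adjusted p was 0.967. Per doubling of Col1a2, Igf2 differed by 0.92 (SE 0.47, unadjusted p = 0.0763) and H19 by 0.93 (SE 0.35, unadjusted p = 0.0206). With Col1a2 edgeR called 0 of 31354 genes (0.0%), and 1114 had an unadjusted p under 0.05. Described together on the linear scale, with no test, Igf2 differed by 7.53 ± 1.70 CPM (SE) per 100 CPM of Ttr and by 18.7 ± 6.46 CPM per 10 CPM of Col1a2. Maternal Igf2 differed by 1.12 ± 0.53 and paternal Igf2 by 1.19 ± 0.29 allelic CPM for 100 CPM of Ttr. For 10 CPM of Col1a2 the values were 5.80 ± 2.01 maternal and 2.22 ± 1.12 paternal. For total H19, r was 0.32 with Ttr (adjusted 0.342) and 0.70 with Col1a2 (permutation p = 0.0152, adjusted 0.0758). With the mean of the leptomeningeal list it was 0.54 (permutation p adjusted 0.178). Age was not a term in these correlations, and Col1a2 was lower in every old than in every young library.

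**Figure D4:**
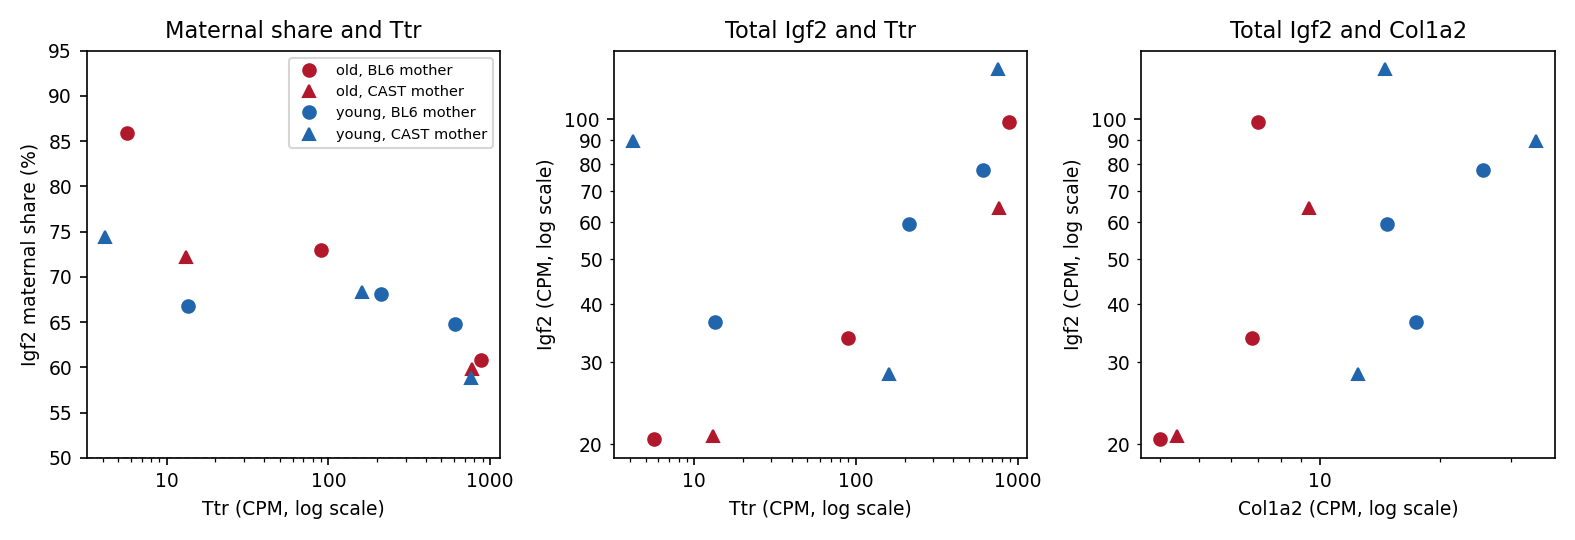
Each point is 1 mouse, with colour for age and shape for the mother's strain; marker and total levels are CPM on log axes. The left panel plots the maternal share of Igf2 in percent against Ttr (r = -0.82), the middle panel total Igf2 against Ttr (r = 0.58) and the right panel total Igf2 against Col1a2 (r = 0.61), and young replicate 5 lies at the upper left of the middle panel.

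Likeness in pattern over the 11 mice was ranked by Pearson's r of log2 CPM among 14302 genes whose mean reached 1 CPM. Predicted genes (Gm and Rik symbols), Gm49394 among them, were left out. Closest to Igf2 were then Ccdc102a (0.98), Perp, a desmosomal membrane gene (0.95), Ajuba (0.95), the transporter gene Slc16a12 (0.94), Tram2 (0.93), the basement membrane gene Nid2 (0.93), the sulfate transporter gene Slc13a4 (0.93), the procollagen processing gene Pcolce (0.91), Igfbp2 (0.90) and Cgnl1 (0.90). All 10 share libraries and depth with Igf2, and their own r lay between 0.48 and 0.77 with Ttr and between 0.30 and 0.75 with Col1a2. The genes closest to H19 were Marveld2 (0.89), Ripk2 (0.83), Igfbpl1 (0.80), Zdhhc9 (0.79) and Serpinh1, a collagen chaperone gene (0.79). With 14 to 116 reads per mouse the H19 values carry much counting error.

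The ligands and receptors of the pathway showed no call for age in edgeR, 0 of 7 tested. None had an unadjusted p under 0.05 and none was called by DESeq2. Over all genes 3811 of 30568 reached that p, and DESeq2 called 528 of 46081. Igf1, the other growth factor of the family, averaged 5.53 ± 1.28 CPM (SD) over the 5 old and 7.53 ± 2.41 CPM over the 6 young mice, a log2 difference of -0.43 (edgeR adjusted p = 0.478). Ins1 was at 0 in all libraries and Ins2 at 0.0570 ± 0.0427 and 0.0840 ± 0.0855 CPM. The receptor genes Igf1r, Igf2r and Insr differed by 0.01, -0.03 and 0.01, and the insulin receptor relative Insrr by 0.26. The median of the 7 was -0.03, against -0.01 over all genes tested. Per mouse the receptors varied little beside Igf2, with Igf2r at 89.8 ± 4.32 CPM (SD) in the 5 old and 92.3 ± 11.6 in the 6 young mice.

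Of the binding proteins and their proteases, which hold IGFs in the extracellular space or release them, 0 of 13 passed for age, with a median of -0.04. Igfbp6, the binding protein with a preference for IGF2, stood at 28.5 ± 4.95 CPM (SD, n = 5) in old and 17.4 ± 4.49 CPM (SD, n = 6) in young mice, a log2 difference of 0.69 with an SE of 0.17 (edgeR unadjusted p = 0.00173, adjusted p = 0.174). Igfbpl1 differed by -1.34 (adjusted p = 0.277) and was called by DESeq2, as the single member, where DESeq2 called 528 of 46081 genes. The protease gene Pappa2 differed by -1.32 (SE 0.83, adjusted p = 0.515). Igfbp1, Igfbp2, Igfbp3, Igfbp4, Igfbp5 and Igfbp7 differed by 0.12, -0.10, 0.21, 0.09, -0.04 and -0.08. For Igfals, Pappa, Stc1 and Stc2 the values were 0.20, -0.11, -0.03 and -0.08. At an unadjusted p under 0.05, 1 of the 13 was higher and 1 lower, where 3811 of 30568 genes reached that p in either direction.

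Downstream, 0 of 19 signalling genes passed in edgeR or DESeq2, with a median of -0.03. At an unadjusted p under 0.05, which 3811 of 30568 genes reached in either direction, 1 of the 19 was higher. The smallest p belonged to the kinase gene Mapk3, at 0.54 (adjusted p = 0.355), followed by Akt1 (0.21) and Pik3ca (-0.22). Of the genes whose proteins bind Igf2 or H19 RNA or regulate those that do, 0 of 6 tested passed in edgeR. Igf2bp2 was at 0.276 ± 0.116 CPM (SD) in the 5 old and 0.807 ± 0.457 CPM in the 6 young mice, a log2 difference of -1.54 (edgeR adjusted p = 0.228), and was called by DESeq2. Among factors that set or guard imprints, 1 of 13 fell with age, Uhrf1, which brings the maintenance methyltransferase to replicated DNA. It stood at 0.719 ± 0.173 CPM (SD) in the 5 old and 1.88 ± 0.532 CPM in the 6 young mice, a log2 difference of -1.37 (edgeR adjusted p = 0.0364). Zfp57, a zinc finger protein that guards methylated imprints, differed by -0.91 (adjusted p = 0.0521) and was called by DESeq2 together with Uhrf1. The methyltransferase gene Dnmt1 differed by -0.17 (0.394) and the cohesin gene Smc1a by -0.25 (0.406). With edgeR 0.34% of all genes passed for age, and DESeq2 called 528 of 46081.

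In the H19 domain itself 0 of 12 genes tested passed for age, with a median of -0.09. The antisense transcript Igf2os, on the plus strand at chr7:142659693-142670356, was at 0.675 ± 0.131 CPM (SD) in the 5 old and 0.310 ± 0.120 CPM in the 6 young mice. Its log2 difference was 1.13 with an SE of 0.29 (edgeR unadjusted p = 0.00195, adjusted p = 0.182), and DESeq2 called it. The ranges of the age groups did not overlap, but such separation was not counted over all genes, so nothing is concluded from it. For age, 0.34% of genes passed in edgeR, Igf2os not among them, and DESeq2 called 528 of 46081. The reads of Igf2os summed to 0.765% of those of Igf2. Since no source used here states whether counting used the strand, reads of the 2 strands may not have been separated. Mrpl23 differed by 0.28 (adjusted p = 0.383), Th by -0.35, Nctc1 by 0.50, Lsp1 by 0.46, Tnnt3 by -0.37, Tnni2 by 0.37, Ascl2 by 0.17, Ins2 by -0.56 and Mir675 by -0.56, none of them called. Syt8 and Mir483 were too low to test. In the adjoining Kcnq1ot1 domain, 0 of 12 passed in edgeR, and Slc22a18 had the smallest p with 1.07 (adjusted p = 0.187) and was called by DESeq2.

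By allele, Igf2 and H19 were the 2 called among 9 genes of the H19 domain with enough reads in young mice. Over all autosomal genes tested in young mice, 111 of 24707 were called maternal and 95 paternal. Th (59.9% maternal over all mice), Mrpl23 (48.7%), Nctc1 (53.0%), Igf2os (48.7%), Lsp1 (55.0%), Tnnt3 (46.3%) and Tnni2 (56.6%) were not called. In the Kcnq1ot1 domain the growth inhibitor gene Cdkn1c was called maternal, with 93.2% and a range over mice of 89.3% to 95.8%. Kcnq1ot1 (0.355%) and Kcnq1 (23.3%) were called paternal. Since the use of strand in counting is not stated, reads of genes on opposite strands may be mixed in these counts too. In the pathway Igf2r, at 54.7% maternal and 49.1% to 59.98% by mouse, was called maternal, with an excess of 0.27 on the log2 scale against 1.01 for Igf2. Grb10, an adaptor protein gene that damps the receptors, was called paternal at 7.46%. In the imprinted gene network, a list of imprinted genes reported to move with Igf2 or H19, 6 genes were called maternal and 6 paternal of 16, among them Meg3 at 99.1% and Plagl1 at 1.28%. None of the 33 genes of the 3 lists was called for a change of the maternal excess with age, where 19 of 24707 genes were. Of the choroid plexus genes, 0 of 17 tested, and of the leptomeningeal genes, 0 of 19, were called for either parent. With so few genes called over the whole table, 0 calls in such short lists say little about their members.

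**Figure D5:**
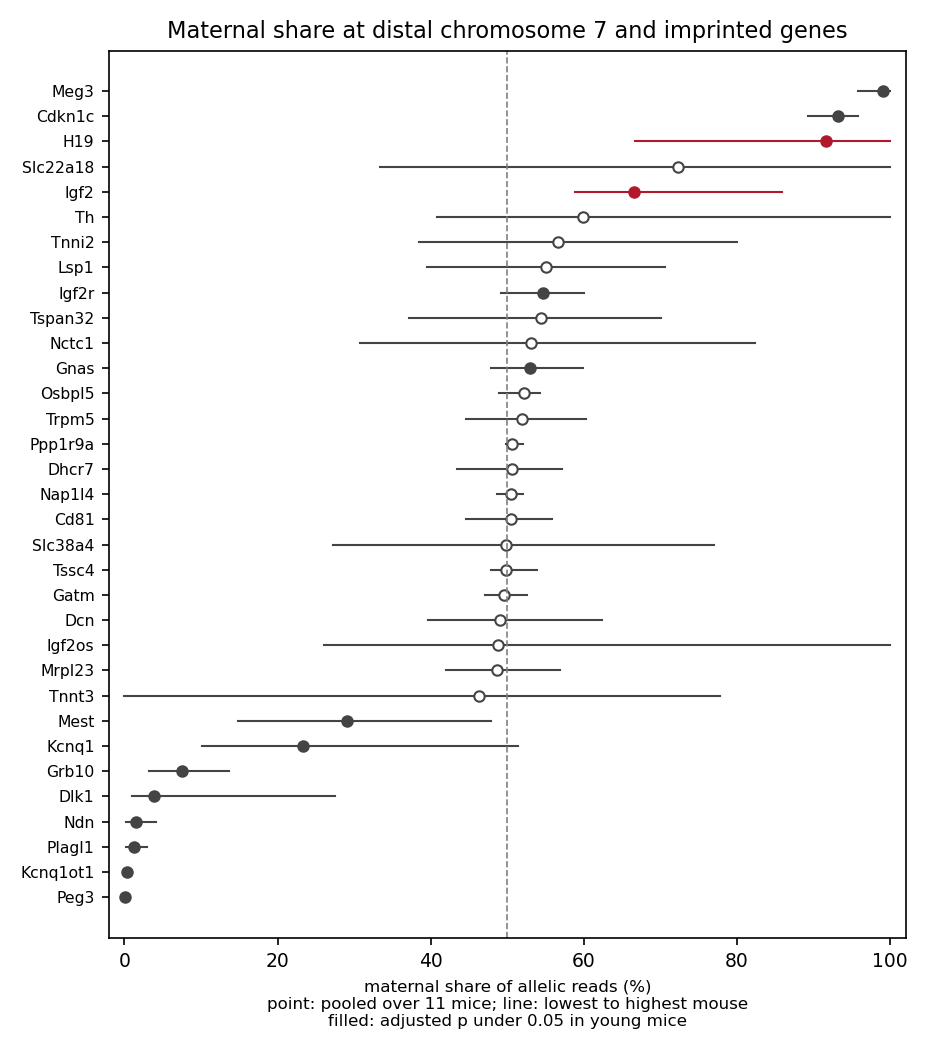
Maternal share in percent of 33 genes of distal chromosome 7 and of the imprinted gene network, pooled over 11 mice (points) with the lowest and highest mouse (lines); filled points passed the allelic edgeR test in young mice and Igf2 and H19 are red. Igf2 at 66.6% lies between H19 at 91.7% and the balanced genes near 50%.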

How the data were processed

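The authors deposited whole-number counts per gene, counts per gene and allele, and TPM values per gene. Per the submitters' processing notes, the tools were bcl2fastq 2.20, Trim Galore 0.6.6, HISAT2 2.1.0, SAMtools 1.10 and featureCounts of Subread 2.0.0, with GRCm38. The sources used here do not give how alleles were assigned or whether strand was used. The BL6 allele was read from the column whose header says i4fb.

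EdgeR 4.0.16 in R 4.3.3 gave the main tests (TMM, filterByExpr, cross and age terms, quasi-likelihood F, Benjamini-Hochberg over all genes tested). The SE of an edgeR value was back-calculated as its absolute log2 value over the square root of F, and is unstable near 0. DESeq2 1.42.0 and limma 3.58.1 on log2(TPM + 0.1) were alternatives. The allelic fit took autosomal genes averaging 10 or more allelic reads, had a term per mouse, and modelled parent and strain of the allele, each also by age. GENCODE M21 gave chromosomes for 55141 of 55401 genes. Correlations used log2(CPM + 0.01) and 100000 permutations, or all of them for 6 or 7 mice. Fits were tested on simulated data. No libraries of 1 age were alike within counting noise, the lowest chi-square being 45.6 per gene.

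Igf2, H19 and all gene lists were chosen with earlier results of these data known. Named were all ligands, receptors, binding proteins and H19 domain genes, called members and up to 4 smallest p of other pathway and neighbour lists, up to 6 abundant marker genes, and the top 10 and 5 by likeness. Imprinted genes with allelic values, the mice above the Ttr gap and the fits of allele by marker were chosen after values were seen.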

Additional observations from a re-analysis of the deposited data

Results flagged for a closer look

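Young replicate 3 had a maternal share of H19 of 66.7%, far below the other 5 young mice at 88.9% to 100%. It rests on 14 maternal of 21 allelic reads, with an exact 95% interval of 43.0% to 85.4%. Dixon's ratio, the gap to the next mouse over the range, was 0.67 in the young group, above its critical value of 0.625. That value assumes normal data of equal precision, while these shares end at 100% and rest on few reads, so no chance rate is given. Among mice of a BL6 mother the ratio for this mouse was 0.25 and not flagged. The 16 groups examined share mice. Without this mouse the maternal excess of H19 in young mice was 4.42 on the log2 scale.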

How the results depend on the processing

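Of 503 alternative values, 443 kept direction and side of the threshold, 32 turned direction, 19 newly passed and 9 no longer passed. No paired analysis was possible because the replicate numbers were given in accession order and tie no mice together. With Ttr and Col1a2 as covariates the age differences turned to 0.77 for Igf2 and 0.63 for H19, in a fit where age and Col1a2 are hard to separate. In CAST-mother mice alone H19 was 0.30 and the share differences were -1.20 points for Igf2 and -11.1 for H19, the latter between 1 old and 1 young mouse. In young mice alone r was -0.0306 for maternal Igf2 and Ttr, -0.79 for the maternal share and Ttr (short of the threshold), 0.52 for the share and Col1a2 and -0.0685 for H19 and Ttr. In BL6-mother mice alone r was 0.94 for Igf2 and Ttr, -0.78 for the share and Ttr (short of the threshold) and 0.95 for H19 and Col1a2. Above the Ttr gap r was 0.87 for Igf2 and Ttr. Leaving out each mouse in turn moved the cross difference of Igf2 from -0.13 to 0.56, its Ttr term from 0.12 to 0.30 and its BL6 term from -0.21 to 0.14. The maternal excess by age ran from -0.12 to 0.36 for Igf2 and from -1.18 to 1.44 for H19. The excess of H19 in old mice ran from 3.19 to 5.31, and the BL6 term of H19 from -2.48 to -0.94. By Ttr, H19 ran from -0.29 to 0.23. By Col1a2, H19 ran from -0.64 to 1.84 and Igf2 from -0.96 to 0.19. Share differences by age ran from -0.429 to 6.09 points for Igf2 and from -7.62 to 9.04 for H19, and by cross from -5.12 to 0.00578 for Igf2. The r of Igf2 ran from 0.47 to 0.87 with Ttr and from 0.50 to 0.75 with Col1a2. That of the share ran from -0.89 to -0.80 with Ttr (adjusted permutation p = 0.0544 without old replicate 1) and from -0.59 to 0.0428 with Col1a2, and that of H19 with Col1a2 from 0.58 to 0.80. Genes called for age numbered 104, but 528 with DESeq2, 42 with limma, 1 with both markers as covariates, 3 in BL6-mother and 0 in CAST-mother mice, and 14 to 244 without single mice. For cross they numbered 63, but 95 with DESeq2. For maternal allele by age they numbered 19, but 88 and 10 with read minimums of 1 and 50, and 11 to 49 without single mice. For allele by Ttr they numbered 2, and 0 to 22 without single mice. The correlation within the 5 old mice was not run, since 6 are needed, and H19 had too few reads for the minimum of 50. The depth of H19, with 4 to 43 allelic reads per mouse, limits its shares.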
